A study of Mus musculus with 2 samples.

Results

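The cells described here are lung mesenchymal cells with high UMI counts (unique transcript molecules) of both Saa3 and Lcn2, 560 of 18351 filtered cells. A cell was a member when it held at least 5 UMIs of Saa3 and at least 2 of Lcn2, fewer than 3 UMIs of Cxcl13, fewer than 20 of Spp1, and 0 UMIs of Cthrc1, Pi16, Myh11, Mki67, Top2a, Epcam and Ptprc. The members of this Saa3 Lcn2 group were thus chosen by their own counts, and the levels of these 11 genes are given as a description only. The bleomycin library held 478 of the members and the saline library 82.

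The 2 groups of the study were bleomycin-treated and saline-treated mice aged 8-10 weeks, all with the genotype Lepr-CreERT2;Rosa26-tdtomato. Here the leptin receptor gene drives a Cre recombinase that tamoxifen activates, which turns on the red protein tdTomato permanently. A marked cell thus keeps the mark after Lepr is lost, and sorting on it is meant to leave out cells that never made Cre. Lungs were digested with enzymes and live tdTomato-positive cells without CD45, EpCAM and CD31 on their surface were sorted, which is meant to keep out leukocytes, epithelium and endothelium. Each treatment had 1 droplet library, and the sources used here do not state how many mice stood behind it, the dose and day of bleomycin or when tamoxifen was given.

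Saa3 encodes serum amyloid A3, an acute-phase apolipoprotein made in mice mainly outside the liver, and Lcn2 encodes lipocalin 2, a secreted protein that binds bacterial siderophores and so withholds iron from bacteria. Acute-phase genes of this kind are switched on in fibroblasts and epithelium by interleukin 1, tumour necrosis factor and the interleukin 6 family, acting through NF-kB, C/EBP and STAT3 transcription factors. Fibroblasts in that state are known to secrete chemokines and colony-stimulating factors that draw and sustain neutrophils and monocytes. Bleomycin breaks DNA and injures alveolar cells, and its use in mice leads to lung scarring.

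The bleomycin library held 10138 barcodes with 134732429 UMIs and the saline library 8396 barcodes with 60937359 UMIs. Cells with at least 500 genes and at most 10% mitochondrial UMIs were kept, 10001 in bleomycin and 8350 in saline. The members held 6720986 UMIs in bleomycin and 874092 in saline, at medians of 12898.5 UMIs per cell in bleomycin and 10530 in saline, against 11692 and 6756 in the other cells of the same libraries. In the members' sums 1 UMI is worth 0.149 CPM (UMIs of a gene over all UMIs of the cells summed, on one fixed scale) in bleomycin and 1.14 CPM in saline, so values of the saline members are far coarser. The 2 libraries shared 25 cell barcodes, and 0 of them belonged to members. Cells of 1 library are not replicates of its treatment: no p-value is given, and brackets hold exact 95% intervals that cover counting error only. A gene is called higher or lower when its CPM differed at least 2-fold, reached 10 CPM in the higher set and had an interval of the ratio clear of 1.

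The members made up 4.78% [4.37-5.22] of the bleomycin cells and 0.982% [0.782-1.22] of the saline cells. Among cells that passed the exclusion criteria on the other 9 genes they were 11.2% [10.3-12.2] of 4254 in bleomycin and 1.27% [1.01-1.57] of 6460 in saline. Both UMI criteria on Saa3 and Lcn2 were met by 983 bleomycin and 119 saline cells before the exclusions. In bleomycin 217 of these 983 held too many Spp1 UMIs, 168 too many Cxcl13 UMIs, 139 a UMI of Mki67 or Top2a, 94 one of Cthrc1, 54 of Pi16, 33 of Myh11, 8 of Epcam and 5 of Ptprc, and a cell could fail several criteria. In saline 24 of 119 failed on Cxcl13, 8 on Pi16, 5 on Mki67 or Top2a, 3 on Epcam and 1 on Myh11. Spp1, which encodes osteopontin, and Cthrc1, a marker of fibrotic fibroblasts, removed 0 saline cells. The exclusion did not empty Spp1 from the members: 299 of 478 bleomycin members held at least 1 Spp1 UMI, against 0 of 82 saline members, and 64.9% of the other bleomycin cells did so too.

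Saa3 UMIs per member had a median of 46.5 in bleomycin, from 5 to 1202, and of 40 in saline, from 5 to 648. Lcn2 had a median of 13 in bleomycin, from 2 to 485, and of 11.5 in saline, from 2 to 148. These distributions start at the limits of the rule in both libraries. Few members sat at the limits. Exactly 5 Saa3 UMIs were held by 12 bleomycin and 2 saline members, and 25 and 3 cells that met every other criterion held 4. Exactly 2 Lcn2 UMIs were held by 35 bleomycin and 7 saline members, and 82 and 16 cells that met every other criterion held 1. The 2 genes did not always go together: 209 bleomycin and 98 saline cells met all criteria but held 0 Lcn2 UMIs, and 388 and 174 did so with 0 Saa3 UMIs.

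**Figure D1:**
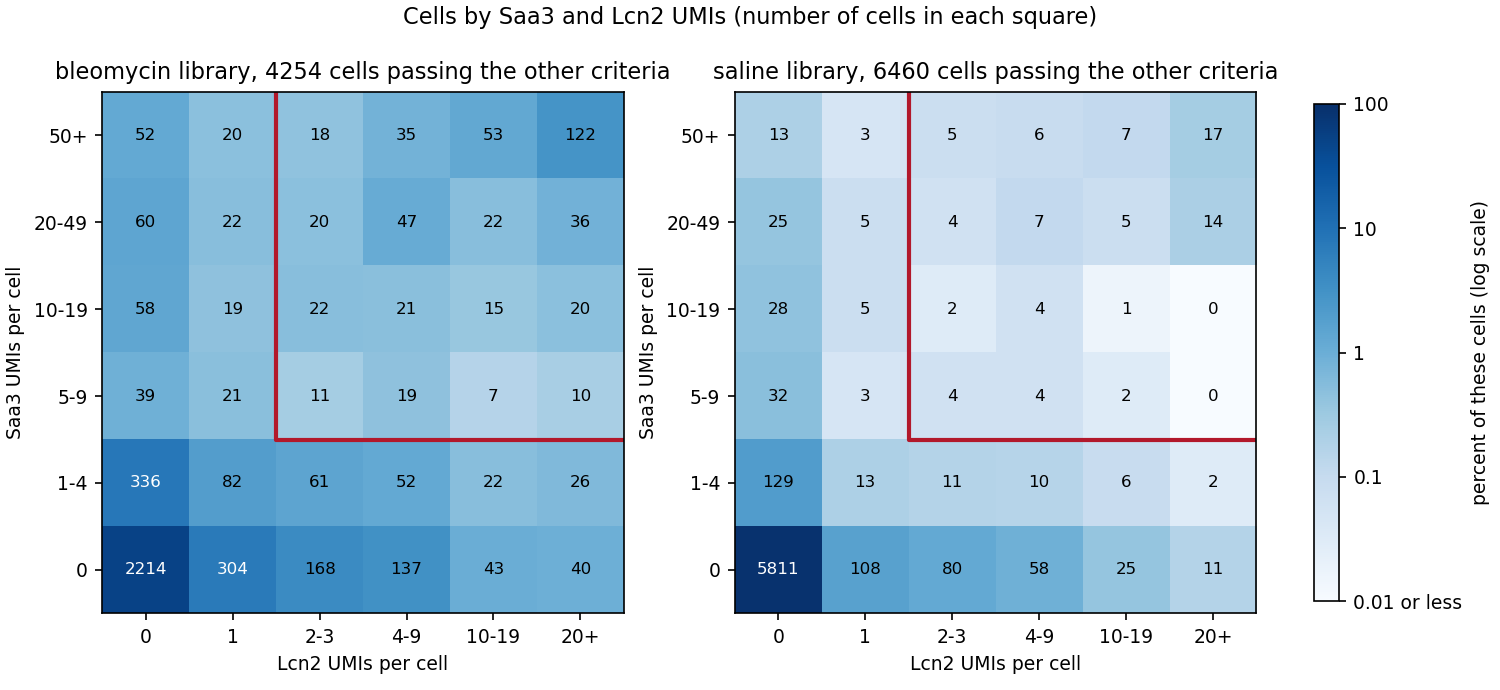
Numbers of cells by Saa3 UMIs (vertical axis) and Lcn2 UMIs (horizontal axis) per cell, with the colour giving the percent on a log scale, among the 4254 bleomycin (left) and 6460 saline (right) cells that passed the exclusion criteria, with a red line around the members. Most cells of both libraries lie in the corner with 0 UMIs of both genes, and the members extend from the line to high counts of both, with 478 cells in bleomycin and 82 in saline.

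Summed over cells, Saa3 stood at 6984 CPM [6921-7048] in bleomycin members and 638 CPM in the other bleomycin cells, and at 7642 CPM [7460-7828] in saline members and 146 CPM in the other saline cells. Lcn2 stood at 2228 CPM in bleomycin members and 294 CPM in the other bleomycin cells, and at 2211 CPM in saline members and 66.5 CPM in the other saline cells. The ratio of bleomycin to saline was 0.91 for Saa3 and 1.01 for Lcn2 among members, and 4.37 and 4.43 among the other cells. Both genes selected the members at the same limits, so these ratios say nothing of equal levels. Saa3 lies on chr7:46711998-46715700 and Lcn2 on chr2:32384633-32388252, both on the minus strand of mm10. The gene starts of Saa3 and Lcn2, and of C3, a gene outside the rule that was called higher in members of both libraries against all other cells, are shown from 250 bases before to 50 bases after the RefSeq start (build GRCm38.p6, minus strand, 5′ to 3′). Sums of Lcn2 and C3 were higher in each successive range of Saa3 UMIs (given further on). So were those of Cxcl12, Timp1 and Fth1, whose gene starts were not searched. They cover chr7:46715627-46715926, chr2:32387690-32387989 and chr17:57228087-57228386, and the Lcn2 window lies inside the longer gene of the GENCODE annotation. Capitals mark matches to the motifs searched.
Saa3: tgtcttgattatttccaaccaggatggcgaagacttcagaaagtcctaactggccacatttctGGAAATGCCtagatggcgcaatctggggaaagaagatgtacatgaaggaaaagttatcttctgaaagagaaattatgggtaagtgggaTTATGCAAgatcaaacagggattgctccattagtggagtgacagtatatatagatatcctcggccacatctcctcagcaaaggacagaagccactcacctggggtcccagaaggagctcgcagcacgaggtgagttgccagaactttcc
Lcn2: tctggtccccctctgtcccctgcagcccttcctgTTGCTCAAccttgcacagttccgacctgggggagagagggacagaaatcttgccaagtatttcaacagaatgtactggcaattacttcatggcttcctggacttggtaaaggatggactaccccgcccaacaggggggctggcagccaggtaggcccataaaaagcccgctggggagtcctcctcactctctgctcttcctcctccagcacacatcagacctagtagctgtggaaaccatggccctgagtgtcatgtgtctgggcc
C3: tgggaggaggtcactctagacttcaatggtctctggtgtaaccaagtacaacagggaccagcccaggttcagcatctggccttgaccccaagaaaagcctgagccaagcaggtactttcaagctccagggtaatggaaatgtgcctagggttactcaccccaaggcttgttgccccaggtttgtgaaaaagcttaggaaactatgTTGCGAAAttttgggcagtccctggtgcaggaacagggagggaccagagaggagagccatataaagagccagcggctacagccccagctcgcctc
The C/EBP motif TTGCNNAA, searched on both strands, matched once in each window: as TTATGCAA at 99 to 92 bases before the Saa3 start, as TTGCTCAA at 216 to 209 bases before the Lcn2 start and as TTGCGAAA at 45 to 38 bases before the C3 start. It matches 10.8% of all 32851 promoter windows of the table. The NF-kB motif GGNNNTTCC matched the Saa3 window only, as GGAAATGCC at 187 to 179 bases before the start, and matches 18.5% of all windows. The STAT motif TTCNNNGAA, present in 8.30% of all windows, matched none of the 3. No match overlapped another, and a match is a description of the letters, not of binding. C3 was picked from several such genes, so matches in these 3 windows are not a share to set against all windows.

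The name given to the cells was checked against marker genes. At least 3 of 6 general fibroblast markers (Col1a1, Col1a2, Col3a1, Pdgfra, Dcn, Lum) were detected in 475 of 478 bleomycin and 82 of 82 saline members. At least 3 of 10 alveolar fibroblast markers, such as Npnt, Inmt, Ces1d and Mfap4, were detected in 97.9% of bleomycin members and 79.5% of the other bleomycin cells, and in 100% of saline members and 88.9% of the other saline cells. Their summed level was 5325 CPM in bleomycin members and 3180 CPM in the other bleomycin cells, and 7845 CPM in saline members and 8650 CPM in the other saline cells. Against the other cells that passed the same exclusions these 10 genes were not higher in members. Their median log2 ratio was -0.22 in bleomycin, with 0 called, and -0.61 in saline, where Inmt was called lower. At least 3 of 10 adventitial fibroblast markers were detected in 80.5% of bleomycin members (67.3% of the others) and 81.7% of saline members (70.5%). At least 3 of 8 fibrotic markers were detected in 56.9% of bleomycin members (64.7%) and 1.22% of saline members (3.14%). The rule limits Pi16, Cthrc1 and Spp1 of these lists. Such counts thus do not set any fibroblast subtype apart. Smooth muscle markers summed to 890 CPM in bleomycin members, against 4461 CPM in the other bleomycin cells, and to 789 CPM in saline members, against 3297 CPM in the other saline cells. The rule sets Myh11, one of these markers, to 0 in members, as it does the epithelial marker Epcam and the leukocyte marker Ptprc, and the other cells hold the classes it excludes. Of the 5 genes that gave the cells their label, Hp, Csf3 and Cxcl2 were not in the rule but were chosen with it, so their levels are also a description. Saa3 and Lcn2 are in every member by the rule, so at least 1 of Hp, Csf3 and Cxcl2 was detected in 89.1% of bleomycin and 54.9% of saline members. The members are therefore called Saa3/Lcn2-high cells here, fibroblasts by their matrix genes.

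Markers of other cell types were low but not absent. Mesothelial markers summed to 51.0 CPM in bleomycin members, against 94.0 CPM in the other bleomycin cells, and all 6 were at 0 in saline members. Endothelial markers summed to 8.5 CPM in bleomycin members and all 6 were at 0 in saline members. Neutrophil markers summed to 20.5 CPM in bleomycin members and 18.7 CPM in the other bleomycin cells. In saline they summed to 5.7 CPM in members and 1.8 CPM in the other cells. Of these 8 genes Retnlg, Cxcr2 and Ly6g were at 0 in members of both libraries, but Ly6g was at 0 in the other cells too. The 1 gene that reached 10 CPM, S100a8, had a log2 ratio of 0.50 in bleomycin and was not called there. Between treatments it was called higher in bleomycin members. Macrophage markers summed to 18.4 CPM in bleomycin members, against 76.1 CPM in the other bleomycin cells, and to 30.9 CPM in saline members, against 46.3 CPM in the other saline cells. Epithelial markers summed to 1695 CPM in bleomycin members, against 685 CPM in the other bleomycin cells, and to 83.5 CPM in saline members, against 1039 CPM in the other saline cells. That bleomycin sum came almost whole from 1 cell with 10954 Scgb1a1 UMIs among its 14873 UMIs and 0 UMIs of the fibroblast markers, which met the rule with 7 Saa3 and 5 Lcn2 UMIs. A further 7 bleomycin members held at least 3 UMIs of the mesothelial gene Msln, and they held 293 of the 46940 Saa3 UMIs of bleomycin members.

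Against the other cells of the same library, 75 of 7665 genes were higher in bleomycin members, a background of 0.978% of all genes measured, and 285 were lower (3.72%). In saline 134 of 7915 genes were higher (1.69%) and 380 lower (4.8%). Genes called higher in both libraries numbered 29 of 7210 (0.402%), which is 38.7% of the bleomycin list and 21.6% of the saline list, and 103 (1.43%) were lower in both. The saline sums rest on few cells: 1 cell held at least 25% of the UMIs of 27 of the 134 genes higher in saline, against 6 of the 75 in bleomycin. When the highest member cell of each gene was left out, the saline list held 71 genes. The other cells also include the classes that the rule excludes. Against only those others that passed the same exclusions, the bleomycin list held 43 of 7506 genes higher (0.573%) and 67 lower (0.893%), and the saline list 158 of 7800 higher (2.03%) and 281 lower (3.6%). In that comparison 13 of the 29 genes were still higher in both libraries (Bpifa2, Cd14, Chil1, Chl1, Cxcl12, Cxcl5, Elovl6, Gm16685, Hp, Rnf125, Saa1, Serpina3f and Serpina3m).

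Acute-phase and antimicrobial genes were higher in members of both libraries. Of 20 on the list 16 reached 10 CPM in bleomycin: 15 of these were higher in members and the lysozyme gene Lyz2 was lower. The median log2 ratio was 1.54, against -0.10 over all genes. In saline 14 reached 10 CPM, of which 10 were higher and Slpi and Itih4 lower, and the median was 1.33, against -0.11 over all genes. Orm1, Hpx and Nos2 stayed below 10 CPM throughout. Against the other cells that passed the same exclusions 9 of 16 were higher in bleomycin, where Lbp, Serpina3g, Serpina3i, Serpina3n, Cp and Steap4 lost the call, and 11 of 13 in saline. Hp, the haemoglobin-scavenging protein haptoglobin on chr8:109575128-109579172, stood at 1470 CPM [1441-1499] in bleomycin members and 382 CPM in the other bleomycin cells, and at 579 CPM [530-632] in saline members and 47.1 CPM in the other saline cells. The ratios were 3.85 in bleomycin and 12.3 in saline, but 1 saline cell held 198 of the 506 Hp UMIs of saline members, and Hp stayed higher without it at a log2 ratio of 2.90. Per cell, Hp had a median of 7 UMIs in bleomycin members, from 0 to 376, and of 0 in saline members, from 0 to 198. Thinned to 5000 UMIs per cell, 72.5% of bleomycin members held an Hp UMI, against 31.9% of the other bleomycin cells, and 34.1% of saline members, against 5.22% of the other saline cells.

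Other secreted acute-phase genes were likewise higher in members. Saa1, a serum amyloid A relative, stood at 43.9 CPM in bleomycin members and 6.74 CPM in the other bleomycin cells, and at 20.6 CPM in saline members and 2.07 CPM in the other saline cells. It was detected in 47 bleomycin members. The saline sum was 18 UMIs in 7 members, 8 of them from 1 cell. Chil1, which encodes a chitinase-like lectin, stood at 502 CPM in bleomycin members and 130 CPM in the other bleomycin cells, and at 201 CPM in saline members and 26.9 CPM in the other saline cells. Cp, the iron-oxidising ceruloplasmin, was at 964 CPM in bleomycin members and 436 CPM in the other bleomycin cells, and at 1229 CPM in saline members and 513 CPM in the other saline cells. The serine protease inhibitor genes Serpina3f, g, i, m and n were all called higher in both libraries against all other cells, Serpina3n at 1278 CPM in bleomycin members and 568 CPM in the other bleomycin cells, and at 606 CPM in saline members and 209 CPM in the other saline cells. Saa1 and Saa2, and the members of the Serpina3 family, are close copies, so reads may be split among them. Steap4, a metalloreductase, was higher in both, with ratios of 2.17 in bleomycin and 2.58 in saline.

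For 5 genes of this list (Slpi, Ptx3, Lrg1, Saa2 and Lbp) the size rule called members higher in bleomycin but not in saline, where Ptx3, Lrg1 and Saa2 lay below 10 CPM. Against the other cells that passed the same exclusions Lbp went the other way, called higher in saline and not in bleomycin. Slpi, an inhibitor of neutrophil elastase, stood at 192 CPM in bleomycin members and 69.7 CPM in the other bleomycin cells, and at 2.29 CPM (2 UMIs in 1 cell) in saline members and 20.6 CPM in the other saline cells. In bleomycin 100 of 478 members held a Slpi UMI, and 1 cell held 21.8% of the sum. After thinning, 13.1% of bleomycin members held one, against 7.22% of the other cells and 17.4% of cells with an Epcam UMI. Ptx3, the long pentraxin that opsonises microbes, stood at 87.9 CPM in bleomycin members and 28.8 CPM in the other bleomycin cells, with 0 UMIs in saline members and 6.90 CPM in the other saline cells. Lrg1, a leucine-rich glycoprotein, stood at 42.4 CPM in bleomycin members and 11.7 CPM in the other bleomycin cells, and at 2.29 CPM (2 UMIs) in saline members and 0.62 CPM in the other saline cells. Whether these ratios differ between the libraries was not tested.

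Of 6 measured signals for neutrophils 4 were higher in bleomycin members (Csf3, Csf2, Cxcl2 and Cxcl5) and 1 lower, and 3 of 3 were higher in saline members (Cxcl1, Cxcl2 and Cxcl5). Against the other cells that passed the same exclusions, Csf3 and Cxcl5 kept the call in bleomycin and the same 3 genes in saline. Cxcl5, a neutrophil-attracting chemokine, led the rule for named genes: it stood at 51.2 CPM in bleomycin members and 7.03 CPM in the other bleomycin cells, and at 162 CPM in saline members and 14.5 CPM in the other saline cells. A Cxcl5 UMI was held by only 64 of 478 bleomycin and 17 of 82 saline members. In saline 1 cell held 26.1% of the members' sum. Cxcl2, another such chemokine on chr5:90903871-90905938, stood at 495 CPM in bleomycin members and 220 CPM in the other bleomycin cells, and at 310 CPM in saline members and 75.5 CPM in the other saline cells. Csf3, the granulocyte colony-stimulating factor on chr11:98701263-98703629, stood at 149 CPM in bleomycin members and 33.0 CPM in the other bleomycin cells. In saline it stood at 9.15 CPM (8 UMIs) in members and 8.41 CPM in the other cells, a ratio of 1.09 [0.47-2.16]. After thinning, 17.6% of bleomycin members held a Csf3 UMI, against 4.59% of the other bleomycin cells and 1.65% of cells with an Epcam UMI, and the shares in saline were 1.22% of members and 1.14% of the other cells. Cxcl1 was at 680 CPM in bleomycin members and 398 CPM in the other bleomycin cells, under the 2-fold limit, and at 871 CPM in saline members and 379 CPM in the other saline cells, past it.

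Signals for monocytes and lymphocytes were mixed. Of 15 measured 4 were higher and 3 lower in bleomycin, and 7 of 12 were higher in saline. The monocyte chemokine Ccl2 stood at 1720 CPM in bleomycin members and 819 CPM in the other bleomycin cells, and at 1945 CPM in saline members and 540 CPM in the other saline cells. Its neighbour Ccl7 was likewise higher in both, 2.06-fold in bleomycin and 3.92-fold in saline. Cxcl12, which holds leukocytes and progenitors through Cxcr4, stood at 793 CPM in bleomycin members and 365 CPM in the other bleomycin cells, and at 493 CPM in saline members and 170 CPM in the other saline cells. Ccl2 and Ccl7 lost the call in bleomycin against others that passed the same exclusions, at ratios of 1.81 and 1.74. The interferon-induced lymphocyte chemokine Cxcl9 stood at 6.55 CPM in bleomycin members and 20.4 CPM in the other bleomycin cells, and at 189 CPM [161-220] in saline members and 29.7 CPM in the other saline cells. The bleomycin value came from 10 cells and was not called against others that passed the same exclusions, at 9.95 CPM, and 1 saline cell held 33.9% of the saline sum.

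Of 10 IL6-family and IL1 cytokine genes 4 reached 10 CPM. Il6 stood at 1160 CPM in bleomycin members and 675 CPM in the other bleomycin cells, and at 972 CPM in saline members and 605 CPM in the other saline cells, short of 2-fold in both. Its relatives passed the limit in 1 library each, Il11 in bleomycin (120 CPM in members and 57.0 CPM in the other cells) and Lif in saline (111 CPM in members and 39.8 CPM in the other cells). Against the other cells that passed the same exclusions Il11 lost the call, Lif kept it in saline, and Il33 was called higher in both libraries. Tnf, Il1a, Il1b and Osm, made mainly by leukocytes, were at most 0.74 CPM in bleomycin members. Of 20 measured cytokine receptor genes 0 passed the size rule in either library. Among 16 NF-kB pathway genes 1 was higher in bleomycin, Sod2, the mitochondrial superoxide dismutase, and 1 in saline, Tnip1. Of the STAT3 and C/EBP list 0 of 13 in bleomycin and 0 of 12 in saline passed: Cebpb stood at 2986 CPM in bleomycin members and 2390 CPM in the other bleomycin cells, and at 3162 CPM in saline members and 3174 CPM in the other saline cells. Protein activity was not measured.

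Complement genes were higher in part. C3, the central complement component, stood at 1523 CPM in bleomycin members and 760 CPM in the other bleomycin cells, and at 3932 CPM in saline members and 1040 CPM in the other saline cells. Cfb, the protease of the alternative pathway, stood at 234 CPM in bleomycin members and 103 CPM in the other bleomycin cells, and at 356 CPM in saline members and 78.1 CPM in the other saline cells. Of the 10 genes on the list 3 were higher in bleomycin and 2 in saline, and against the other bleomycin cells that passed the same exclusions 0 of 10 were. C6, a pore-forming component named by the rule and not on that list, had ratios of 3.33 in bleomycin and 6.19 in saline against all other cells, and of 1.86 and 5.30 against those that passed the same exclusions. Fth1, the ferritin heavy chain that stores iron, was the most abundant gene of interest, at 35415 CPM in bleomycin members and 17709 CPM in the other bleomycin cells, and at 32838 CPM in saline members and 17266 CPM in the other saline cells, just under 2-fold in both.

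The rule for named genes also brought out genes outside these lists. Chl1, a neural cell adhesion molecule, stood at 331 CPM in bleomycin members and 98.7 CPM in the other bleomycin cells, and at 33.2 CPM in saline members and 1.02 CPM in the other saline cells. Cd14, the co-receptor for bacterial lipopolysaccharide, was 4.01-fold higher in bleomycin and 2.77-fold in saline, the salivary antimicrobial gene Bpifa2 3.43-fold in bleomycin and 2.51-fold in saline, and the fatty acid elongase Elovl6 2.43-fold in bleomycin and 2.65-fold in saline. Without the highest member cell of each, Cd14 and Bpifa2 fell short of the limit in saline, at log2 ratios of 0.79 and 0.82. Of the 12 lowest genes in both libraries, 5 were genes of contractile muscle (Actc1, Cnn1, Actg2, Tcap, Synpo2), led by Actc1 at 1.49 CPM in bleomycin members and 97.2 CPM in the other bleomycin cells, and 1.14 CPM (1 UMI) in saline members and 165 CPM in the other saline cells. These belong to classes the rule excludes through Myh11, and against others that passed the same exclusions Actc1 had a ratio of 0.78 in bleomycin and 0.52 in saline. The rest included alveolar type I genes (Aqp5, Ager), the immunoglobulin gene Igkc, and Cd9, Sh3bgr, Postn and Ramp1.

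No fibrillar collagen or matrix gene was called higher in members than in all other cells. In bleomycin 9 of 22 were lower and the median log2 ratio was -0.80. In saline 6 of 20 were lower and the median was 0.18. Col1a1 stood at 1777 CPM in bleomycin members and 3832 CPM in the other bleomycin cells, and at 999 CPM in saline members and 944 CPM in the other saline cells. Of 16 TGF-beta response genes 6 were lower in bleomycin, among them Acta2 at 299 CPM in members and 1495 CPM in the other cells. Cthrc1 and Spp1, which mark matrix-producing fibrotic fibroblasts, are in the rule, and against the others that passed the same exclusions 3 of 21 matrix genes and 1 TGF-beta response gene were lower in bleomycin. In saline that comparison had 4 of 19 matrix genes lower and 1, Vcan, higher. Timp1, an inhibitor of matrix proteases, was higher in saline members, at 1728 CPM against 319 CPM in the other saline cells, and stood at 3550 CPM in bleomycin members and 2748 CPM in the other bleomycin cells. Against the others that passed the same exclusions, at 1573 CPM in bleomycin, Timp1 was called higher in members of both libraries. Lepr, the gene that marked the lineage, stood at 10.9 CPM in bleomycin members and 11.1 CPM in the other bleomycin cells, and at 43.5 CPM in saline members and 61.8 CPM in the other saline cells.

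The change of other genes with the amount of Saa3 was followed in cells thinned to 5000 UMIs, so that depth is equal. The exclusions were applied to the thinned counts. In bleomycin 4671 cells passed them so, against 4254 at full depth, and some of the cells used therefore fail the exclusions at full depth. The bins were 0, 1-4, 5-19, 20-49 and 50 or more Saa3 UMIs. They held 3379, 537, 386, 198 and 171 bleomycin cells and 5025, 140, 95, 41 and 34 saline cells. From the lowest to the highest bin, Lcn2 ran 160, 389, 967, 1768 and 3230 CPM in bleomycin and 42.8, 184, 817, 1341 and 2606 CPM in saline. C3 ran 961, 1223, 1417, 1541 and 1575 CPM in bleomycin and 865, 1940, 2518, 3498 and 4306 CPM in saline. Cxcl12 ran 348, 501, 703, 828 and 1261 CPM in bleomycin and 132, 270, 307, 380.5 and 565 CPM in saline. All 3 genes were higher in each successive bin, below the limit of 5 UMIs as well as above it, though the intervals of C3 in the last bleomycin bins overlap. Within members, cell by cell, the relation of C3 to Saa3 was weak, with a Spearman rho of 0.083 over 466 bleomycin cells and 0.145 over 82 saline cells that share library and depth. Timp1 climbed likewise, through 1422, 1711, 2642, 3193 and 3837 CPM in bleomycin and 205, 320, 747, 805 and 2947 CPM in saline. Fth1 climbed to 38295 CPM in the highest bleomycin bin and 34177 CPM in the highest saline bin, above 20160 CPM and 18038 CPM in the bins at 0. Inmt, a methyltransferase of alveolar fibroblasts, ran the other way in saline, through 3595, 2994, 2377, 1815 and 1318 CPM. Other genes did not climb evenly. In saline Hp ran 40.7, 68.6, 524, 127 and 788 CPM, and Cxcl2 ran 63.9, 51.4, 253, 43.9 and 376 CPM. In bleomycin Hp and Csf3 were higher in each successive bin, at 1799 and 230 CPM in the last. Cxcl2 fell there from 678 to 492 CPM in the last bin, and Il6 stayed between 1088 and 1188 CPM above the bin at 0. These bins share cells, libraries and thinning, and no test was made on them.

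**Figure D2:**
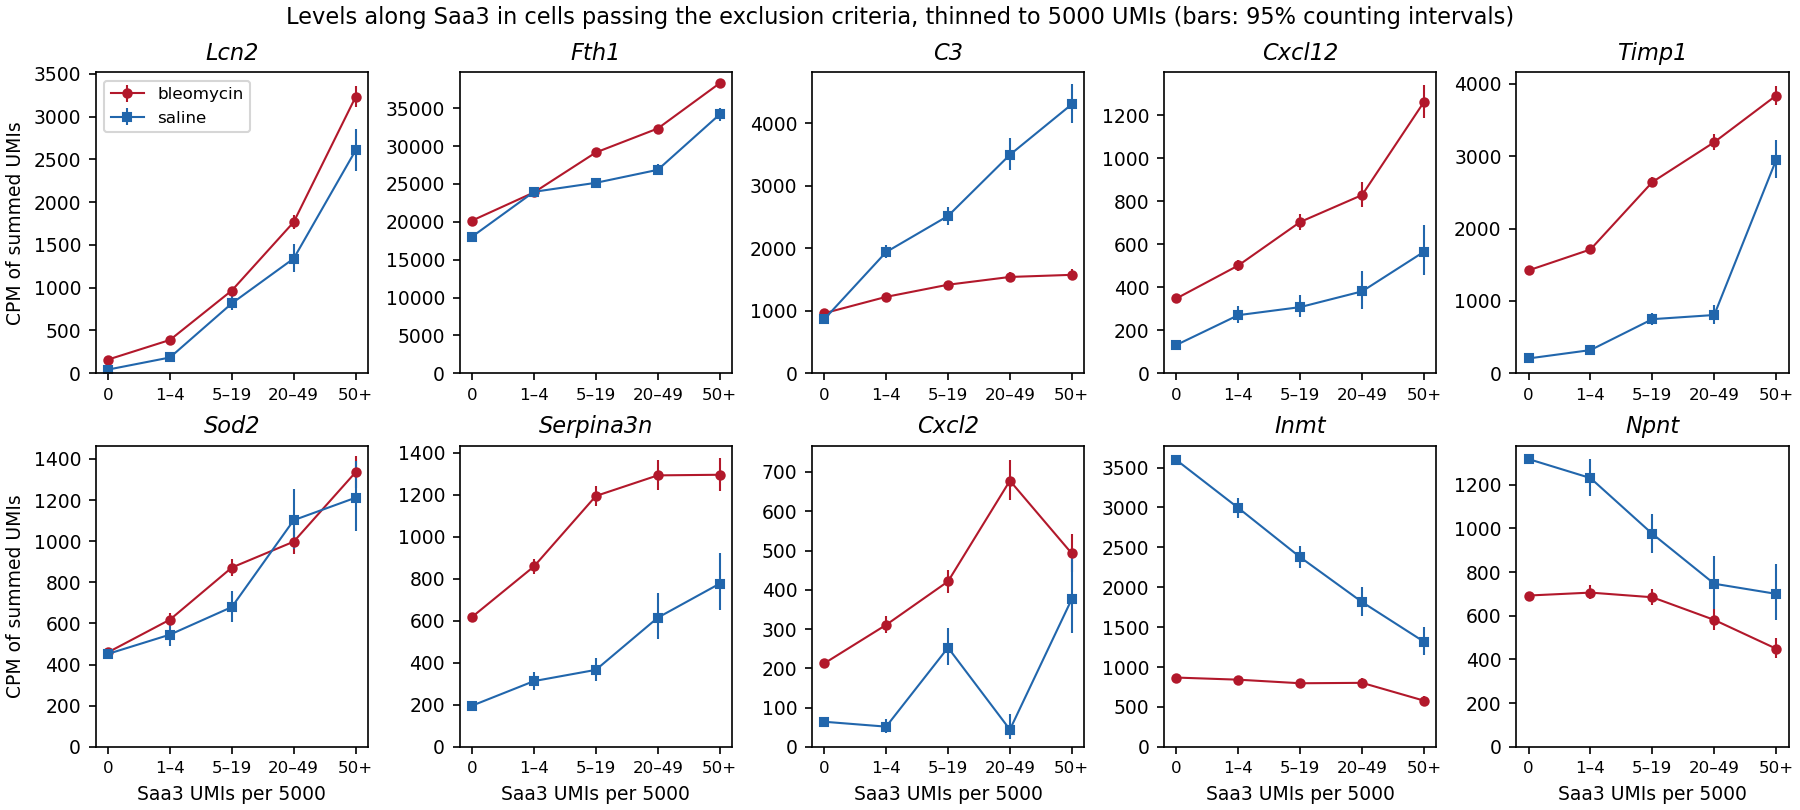
Level in CPM of 10 genes over bins of Saa3 UMIs per 5000 UMIs, in bleomycin and saline cells that passed the exclusion criteria on their thinned counts, with exact 95% counting intervals. Lcn2, Fth1, C3, Cxcl12 and Timp1 were higher in each successive bin of both libraries, and Inmt was lower in each successive bin of saline.

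How often other classes of cells met the Saa3 and Lcn2 criteria was read at the same 5000 UMIs, with the classes and the exclusions also set on the thinned counts. Of cells that passed the exclusions 8.97% did in bleomycin (419 of 4671) and 1.39% in saline (74 of 5335). Cells with at least 3 UMIs of Cxcl13, a B cell-attracting chemokine, did so far more often, 43.9% in bleomycin (90 of 205) and 52.2% in saline (12 of 23). Cells with a Cthrc1 UMI did so in 1.55% of cases in bleomycin (27 of 1742), those with a Pi16 UMI, an adventitial fibroblast marker, in 1.81% (14 of 772), and those with at least 20 Spp1 UMIs in 6.88% (98 of 1425). Of cells with at least 3 UMIs of Myh11, a smooth muscle gene, 0 of 610 did in bleomycin and 0 of 357 in saline, which allows shares of up to 0.60% in bleomycin and 1.03% in saline.

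**Figure D3:**
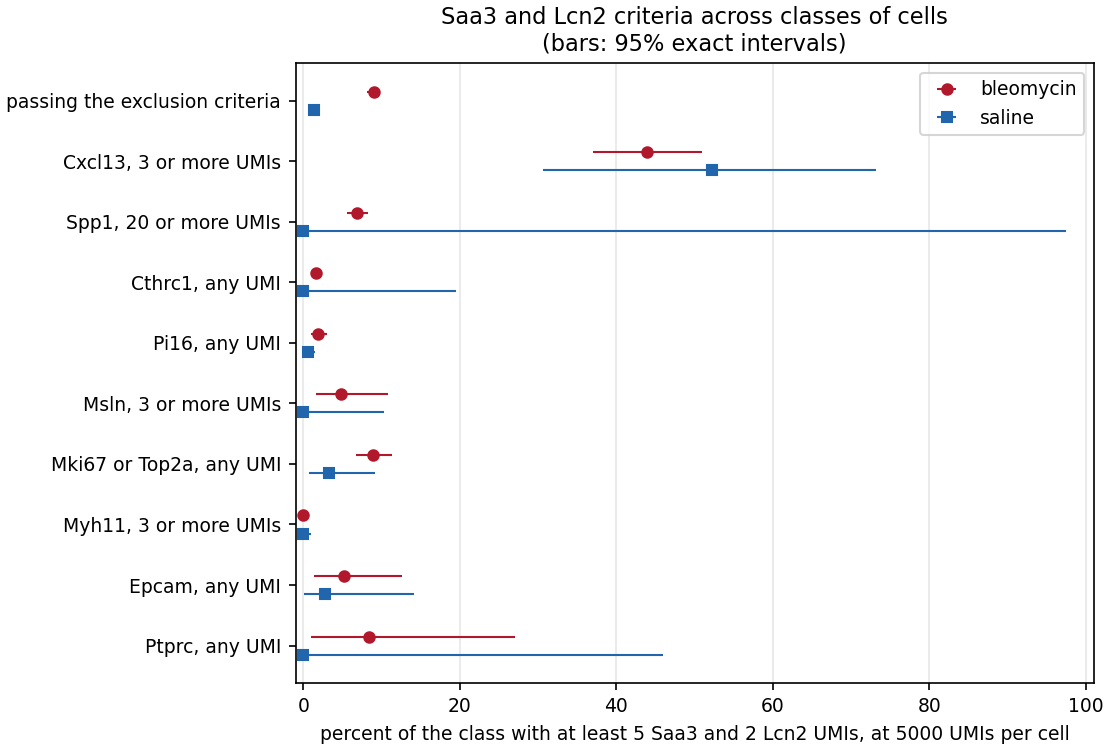
Percent of cells with at least 5 Saa3 and at least 2 Lcn2 UMIs at 5000 UMIs per cell, for classes set by UMIs of marker genes, in bleomycin and saline, with exact 95% intervals. Cells with at least 3 Cxcl13 UMIs stand at 43.9% in bleomycin and 52.2% in saline, above the point of every other class, and classes with few saline cells have wide intervals.

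Some cells met every criterion but the one on Cxcl13, 100 in bleomycin and 20 in saline. Saa3 stood at 6984 CPM in members and 9684 CPM in these Cxcl13-positive cells of bleomycin, and at 7642 CPM in members and 10539 CPM in the Cxcl13-positive cells of saline. Cxcl12 stood at 793 CPM in members and 1575 CPM in Cxcl13-positive cells of bleomycin. Csf3 stood at 149 CPM in members and 303 CPM in Cxcl13-positive cells of bleomycin, Lcn2 at 2228 and 3479 CPM, and C3 at 1523 and 2031 CPM. In saline Csf3 had 8 UMIs in members and 0 in Cxcl13-positive cells. Cxcl5 stood at 51.2 CPM in members and 113 CPM in Cxcl13-positive cells of bleomycin, and at 162 CPM in members and 1586 CPM in Cxcl13-positive cells of saline. Timp1 was higher in members in bleomycin, at 3550 CPM against 2353 CPM in Cxcl13-positive cells, and lower in saline, at 1728 CPM against 4413 CPM. Other signals ran the other way: Cxcl2 stood at 495 CPM in members and 360.3 CPM in Cxcl13-positive cells of bleomycin, and at 310 CPM in members and 106 CPM in Cxcl13-positive cells of saline. Ccl2 stood at 1720 CPM in members and 1408 CPM in Cxcl13-positive cells of bleomycin. Neither set thus held more of all secreted products. Another set passed the exclusions and held at least 3 Hp UMIs with 0 UMIs of Saa3 and Lcn2, 454 cells in bleomycin and 67 in saline. In bleomycin Hp was 1470 CPM in members and 1360 CPM in these cells, C3 was 1523 CPM in members and 796 CPM in these cells, and Ccl2 was 1720 CPM in members and 792 CPM in these cells. Cxcl5 was 51.2 CPM in members and 0.8 CPM in these cells, whereas Il6 was 1160 CPM in members and 1071 CPM in these cells. Near the same Hp level in bleomycin, then, Cxcl5 and Ccl2 stood apart between the sets and Il6 lay close. The Hp-positive set was chosen on Hp and the members were not, so its Hp level follows from its definition. In saline Hp was 579 CPM in members and 1274 CPM in the Hp-positive set. Both sets were defined with the data known.

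Between the treatments, 425 of 7738 genes were higher in bleomycin than in saline members (5.49%) and 466 were lower (6.02%). Of these, 197 of the 425 and 213 of the 466 were called in the same direction in the other cells, where 449 of 8107 genes were higher (5.54%) and 482 lower (5.95%). Acute-phase genes were called higher in 9 of 16 cases and lower in 1 (Lyz2), and their median log2 ratio was 1.08, against -0.03 over all genes. Among the other cells 8 of 12 were higher. Hp was 2.54-fold higher in bleomycin members [2.32-2.78], and 8.11-fold higher among the other cells. Without its highest member cell in each library the members' log2 ratio was 2.00, since 1 saline cell held 39.1% of the saline sum. Csf3 was 16.3-fold higher [8.24-37.9], with 149 CPM in bleomycin members and 8 UMIs in saline members, and 3.92-fold higher among the other cells. Without its highest member cell in each library the log2 ratio of Csf3 was 5.36, since so few saline counts remained. Serpina3n, Chil1, Lbp and Saa1 were 2.11-fold, 2.49-fold, 2.35-fold and 2.13-fold higher in bleomycin members.

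Interferon-induced genes lay on the other side. Of 18 measured 14 were lower in bleomycin members and 0 higher, and the median log2 ratio was -1.47. Among the other cells 8 of 17 were lower and the median was -0.92. Gbp2, an interferon-induced GTPase, stood at 40.2 CPM in bleomycin members and 168 CPM in saline members, and H2-K1, a class I antigen-presenting gene, at 395 CPM in bleomycin members and 1236 CPM in saline members. Cxcl9 had an inverse ratio of 28.8, with 6.55 CPM in bleomycin members and 189 CPM in saline members. B2m, the common chain of class I molecules, stood at 1322 CPM in bleomycin members and 3098 CPM in saline members, and the ratio of 0.43 compares with 0.64 among the other cells. Ifit3 stood at 10.9 CPM in bleomycin members and 82.4 CPM in saline members, but 1 saline cell held 51.4% of its saline sum. C3 was also lower, at 1523 CPM in bleomycin members and 3932 CPM in saline members, as was Cxcl5, at 51.2 CPM in bleomycin members and 162 CPM in saline members.

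Matrix genes were mostly higher in bleomycin members. Of 20 fibrillar collagen and matrix genes 11 were called higher and 0 lower, and the median log2 ratio was 1.07. Among the other cells 16 of 22 were higher and the median was 1.63, and the difference between the sets was not tested. Col1a1 stood at 1777 CPM in bleomycin members and 999 CPM in saline members, a ratio of 1.78 short of the limit, and was 4.06-fold higher among the other cells. Fn1, the matrix protein fibronectin, stood at 3976 CPM in bleomycin members and 860 CPM in saline members, a ratio of 4.62 against 5.70 among the other cells. Genes of the p53 response were higher in 5 of 10 cases and lower in 1, with a median log2 ratio of 0.97. Among the other cells 6 of 12 were higher and 1 lower, with the same median of 0.97. Those called in members included Mdm2, the ubiquitin ligase of p53, at 92.4 CPM in bleomycin members and 44.6 CPM in saline members, and Phlda3, an inhibitor of Akt, at 169 CPM in bleomycin members and 53.8 CPM in saline members. Lepr was lower, at 10.9 CPM in bleomycin members and 43.5 CPM in saline members, a ratio of 0.25 against 0.18 among the other cells.

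**Figure D4:**
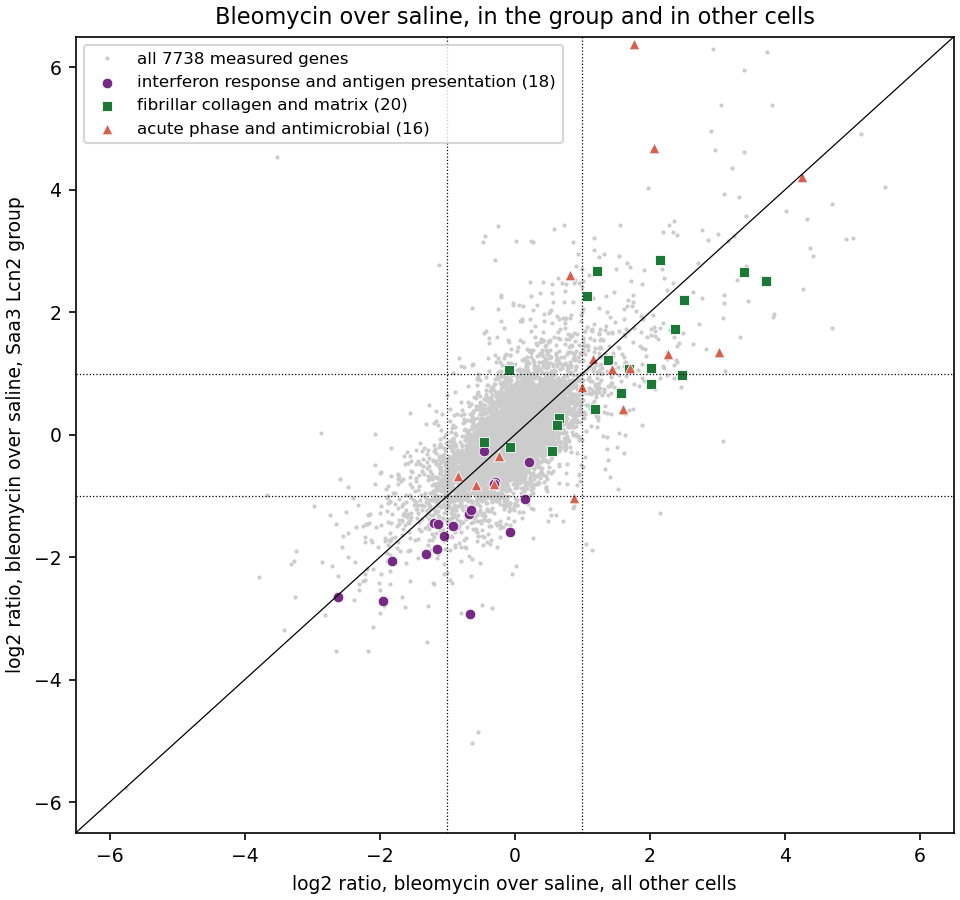
Log2 ratio of bleomycin to saline in members (vertical axis) against the same ratio in the other cells (horizontal axis) for 7738 genes (grey), with genes of the interferon (18), fibrillar matrix (20) and acute-phase (16) lists coloured. Interferon genes lie mostly below 0 on both axes and matrix genes mostly above 0 on both, and no cell enters both axes.

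Among the 12 genes with the highest ratio of bleomycin to saline members, several had almost no counts in saline members. Ereg, the growth factor epiregulin, stood at 334 CPM in bleomycin members and 8.01 CPM (7 UMIs) in saline members. Sdc1, a cell-surface proteoglycan, stood at 71.3 CPM in bleomycin members and 1.14 CPM (1 UMI) in saline members, and S100a4, a calcium-binding fibroblast gene, at 90.5 CPM in bleomycin members and 1.14 CPM (1 UMI) in saline members. Among the other cells Ereg, Sdc1 and S100a4 were also higher in bleomycin, 14.0-fold, 10.5-fold and 7.63-fold. S100a4 was called lower in members than in the other cells, at log2 ratios of -2.18 in bleomycin and -5.55 in saline. Ptx3, at 0 UMIs in saline members, was at least 25.6-fold higher in bleomycin members, Ace, the angiotensin-converting enzyme, at least 24.5-fold, and Wfdc12, a protease inhibitor, at least 31.0-fold, with the floor set at 3 counts in the saline sum. For Wfdc12 1 cell held 32.0% of the bleomycin sum. Slpi, Pla1a, Fam110c and Col28a1 were the others, beside Scgb1a1 and Scgb3a2, whose bleomycin sums came to 98.4% and 95.5% from 1 cell. Slpi and Pla1a were also higher in bleomycin among the other cells, 3.38-fold and 8.29-fold, and Ptx3 was called higher there too. Among the 12 lowest, Tpm3-rs7, a retrogene copy whose counts are uncertain, stood at 1.79 CPM in bleomycin members and 97.2 CPM in saline members, and its ratio of 0.02 was the same among the other cells. Cwc22 stood at 9.52 CPM in bleomycin members and 87.0 CPM in saline members, and Gria1, a glutamate receptor subunit, at 4.02 CPM in bleomycin members and 30.9 CPM in saline members. The others were Cxcl9, Tmem163, Ifit3, Gfod2, Gbp6, AW112010, Stard4, Igtp and Gdpd3.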

How the data were processed

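Lung mesenchymal cells were profiled with the 10x Genomics 3' v3 kit, per the labels' protocols. The deposited files hold raw UMI counts per gene and cell, made by the authors with Cell Ranger 6.1.2 on mm10 per the submitters' processing notes. Members and gene lists were chosen with earlier results of these data known. No cells were removed as doublets: Scrublet (scanpy 1.11.5) called 2 bleomycin cells, 0.0200%, and so did not work there, and 96 saline cells, 1.15%, with 0 members called in either library.

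Counts were added up per library and cell set and scaled to CPM. CPM carry exact Poisson, ratios exact conditional binomial and shares Clopper-Pearson intervals at 95%. The size rule is stated with the results, and a side at 0 was set to 3 counts. The 11 rule genes were left out of counts of genes. The procedure was checked on simulated counts. To compare shares and bins, cells were thinned to 5000 UMIs, and for the bins and classes the criteria were applied to the thinned counts. This left out 12 bleomycin and 0 saline members, and 787 and 1750 of the other cells.

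Outside the gene lists, named genes were the 12 highest and 12 lowest genes called alike in both libraries, by the smaller ratio, and the 12 highest and 12 lowest of at least 20 CPM between treatments. Unnamed models, mitochondrial and ribosomal protein genes were not ranked. Positions came from GENCODE vM21 by gene ID, with 32235 of 32285 matched, and promoters from RefSeq. Alternatives covered the limits of the rule, thinning, the comparison cells, doublet scores, CPM and fold limits and TMM factors (edgeR 4.0.16, R 4.3.3). Python 3.11.15, numpy 2.4.6, scipy 1.17.1, pandas 2.3.3 and matplotlib 3.10.9 were used.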

Additional observations from a re-analysis of the deposited data

Results flagged for a closer look

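Slpi was higher in members than in the other cells of bleomycin, at a log2 ratio of 1.46, and lower in saline, at -3.17, where members held 2 UMIs in 1 cell. Cxcl9 went the other way, at -1.64 in bleomycin and 2.67 in saline. The airway secretory genes Scgb3a2 and Scgb1a1 were higher in members of bleomycin, at 3.29 and 3.02, and lower in members of saline, at -4.76 and -4.37. Between treatments Scgb3a2 had a log2 ratio of 4.53 in members and -3.52 in the other cells, and Scgb1a1 of 5.46 in members and -1.94 in the other cells. These came up because the same contrast ran in opposite directions in 2 sets of cells, and the differences between the sets were not tested. Cxcl9 in bleomycin rests on 10 member cells and was not called against other cells that passed the same exclusions. For Scgb1a1 and Scgb3a2, 1 bleomycin member held 98.4% and 95.5% of the members' UMIs. For Slpi 1 bleomycin member held 21.8% of them, and 100 of 478 members held any.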

How the results depend on the processing

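No paired analysis was possible because each treatment had 1 library, and for the same reason no replicate could be left out. The members' share was 6.24% of bleomycin and 1.31% of saline cells with limits of 3 Saa3 UMIs and 1 Lcn2 UMI, and 3.71% and 0.731% with 10 and 4. Under the other alternatives it lay between 4.38% and 4.90% in bleomycin and between 0.982% and 1.12% in saline. Counts of genes follow the limits. Without a CPM minimum 249 genes were higher and 1164 lower in bleomycin members, and 206 higher in saline. At 50 CPM the counts were 37 higher and 74 lower in bleomycin, 50 and 50 in saline, and 123 and 145 between treatments, and at 3-fold 23 and 182, 43 and 195, and 214 and 141. Thinned cells gave 206 higher genes in saline. Against others that passed the exclusions 43 were higher and 67 lower in bleomycin. Leaving out each gene's highest member cell, an alternative added after seeing the data, gave 71 higher and 699 lower in saline. TMM factors moved the counts between treatments to 507 higher and 355 lower, beside 425 and 466 without them, and shifted log2 ratios by 0.11 in bleomycin members against other cells and by 0.085 in the other 2 contrasts.

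Single genes reversed sign in few cases. Between treatments Scgb3a2 reached -1.50 (log2) in thinned cells, -0.42 with stricter limits, -0.0089 with limits scaled to each cell's depth and -1.53 without the highest cell, Scgb1a1 reached -0.46 without the 10 bleomycin members that held Msln or lacked fibroblast markers (an added alternative), and Lyz2 reached 0.76 with stricter limits and 0.21 without the highest cell. Igkc reached 1.39 in bleomycin with looser limits. Against others that passed the exclusions, Thbs2 and Cdkn2a reached 0.37 and 1.68 in bleomycin, and Cnn1, Actg2, Sh3bgr, Postn, Ramp1, Itih4 and Acta2 reached 0.45, 0.96, 0.20, 0.99, 1.73, 2.33 and 0.73 in saline. The cause was not tested, except that those others lack the excluded classes. Depth limits saline members most, where 3 counts are 3.43 CPM, against 0.446 CPM in bleomycin members.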

Other observations

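Prostaglandin genes were not higher in members than in the other cells of either library, with 0 of 6 called in bleomycin and 3 of 7 lower in saline, yet 3 of 6 (Ptgs1, Ptgs2 and Pla2g4a) were higher in bleomycin than in saline members. Hypoxia genes passed the size rule in 0 cases in any of these comparisons. Of 16 immediate early genes, which respond to tissue digestion, 0 passed in bleomycin members against other cells, 1 was lower in saline (Hspa1b) and 1 was lower between treatments (Egr1). Among signals outside the acute-phase lists, Il33, an alarmin, stood at 46.0 CPM in bleomycin members and 11.4 CPM in saline members, and Inhba, a subunit of activin A, was 12.6-fold higher in bleomycin members.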
